A study of Mus musculus with 6 samples.

Results

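Genes induced only by 6 h are genes of depolarized mouse cortical neurons whose RNA level was at most 1.5 times its starting value after 2 h in high potassium and well above it by 6 h. They were chosen from the deposited values alone, as genes whose expected count averaged 100 or more over the 6 h libraries, with a mean TPM (a level corrected for transcript length and library size) at 2 h of at most 1.5 times the 0 h mean, and a mean TPM at 6 h of at least 3 times the 0 h mean. Of 43432 genes listed, 10788 passed the count minimum, 267 of these were at least 3 times higher at 6 h, and 110 of these met the limit at 2 h. Symbols that start with Kcn, Col, Itg, Sema or Zfp were set aside, which removed 7 genes (Kcna1, Kcna4, Kcnh7, Kcnj3, Kcnq1ot1 and Col12a1 among them) and left 103 members. Every level and ratio of these genes below was therefore selected on, and is a description with no test.

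The cultures were wild-type C57BL/6 cortical neurons, taken from embryos of both sexes pooled at E16.5 and grown for 7 days in vitro. All groups, the 0 h group included, had been silenced overnight with 1 µM tetrodotoxin (TTX), which blocks voltage-gated sodium channels, and 100 µM DL-AP5, which blocks NMDA receptors. Cells then spent 0 h, 2 h or 6 h in 55 mM KCl, and poly(A) RNA was sequenced from 2 biological replicates per time, 6 libraries in all. Which embryos gave which replicate is not stated, so spread between replicates may be partly technical, and no 6 h culture without KCl is among the samples analysed.

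Raised extracellular potassium depolarizes neurons and opens voltage-gated calcium channels, and the calcium that enters starts a program of transcription. Immediate-early genes, many of them transcription factors such as Fos and Npas4, respond first without new protein synthesis. Later genes, among them growth factors, neuropeptides and synaptic proteins, follow in cortical neurons.

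Libraries held 25959298 to 28573067 expected counts. The defining markers of neurons were all present (10 of 10 at 1 TPM or more in some library), and their summed TPM ran from 3364 to 4196. Within that list the inhibitory markers Gad1 (159 and 156 TPM at 0 h, 386 and 355 at 6 h) and Gad2 (37.4 and 32.7, then 80.3 and 77.5) were higher in both 6 h libraries, while Tubb3 (1639 and 1679, then 666 and 794) and the excitatory marker Slc17a7 (46 and 52.2, then 32 and 31.7) were lower. The other excitatory marker of the list, Slc17a6, was not lower (19.3 and 19.6 TPM at 0 h, 20.8 and 19.9 at 6 h). Summed astrocyte markers were 511 to 558 TPM in the 0 h and 2 h libraries and 419 and 430 TPM at 6 h, lower in both 6 h libraries, while microglial and endothelial or mural markers summed to at most 6.78 and 3.43 TPM. No member stands on any of the 8 marker lists. In RNA from whole cultures, fewer cells of a type and less RNA per cell cannot be told apart, and the part of cell makeup in the values below was not tested.

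Across the 103 members the 6 h to 0 h ratio of mean TPM ran from 3 to 14.4, with a median of 3.7. The ratio was at least 5 for 21 members, at least 4 for 38 and under 3.5 for 45. At 2 h the ratio to 0 h had a median of 1.13 and ran from 0.187 to 1.5: 44 members stood under their 0 h level, 20 between 1 and 1.2 times it and 39 above that. The number under 0 h at 2 h depended on the scale, with 42 on counts scaled by library total, 26 on normalized counts and 27 on normalized counts corrected for GC content. Over the genes past the count minimum the median log2 ratio of 2 h to 0 h was -0.14 on TPM and 0.04 on normalized counts, and the 6 h to 0 h median was -0.07 and 0.09.

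Most members were scarce before stimulation. Their median TPM was 6.35 at 0 h, against 28.2 for all genes past the count minimum, and 37 members were under 3 TPM. At 6 h the median was 24.3 TPM against 26.5, and 12 members reached 100 TPM. Summed over the members, the 0 h libraries held 1351 and 1332 TPM, the 2 h libraries 1631 and 1455, and the 6 h libraries 4904 and 4955. Both 6 h libraries were above all 4 others for 102 of the 103 members, the exception being Ttf1, described below.

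**Figure D1:**
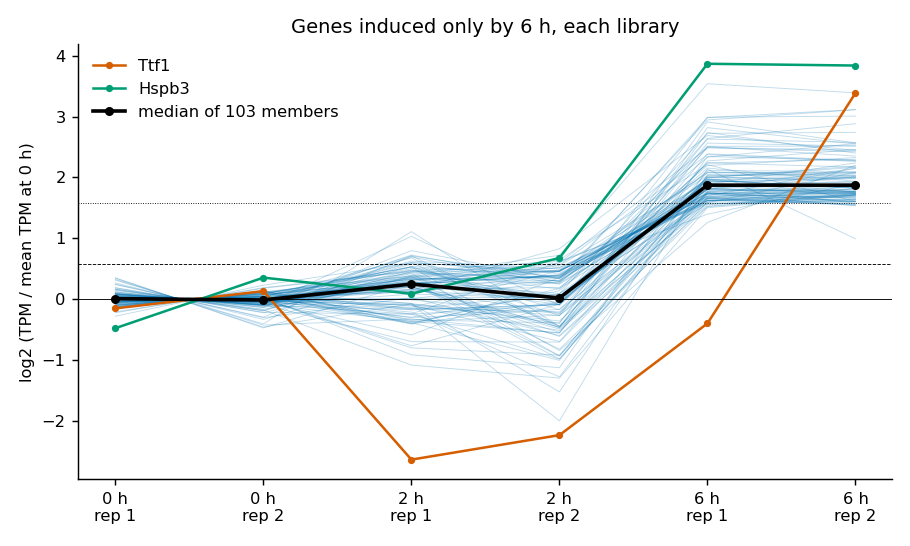
The log2 ratio of TPM to the mean 0 h TPM (vertical axis) of each of the 103 members in each of the 6 libraries (horizontal axis). Each thin line joins the 6 libraries of 1 gene, the dashed line marks 1.5 times and the dotted line 3 times the 0 h mean, and the black line is the median. At 2 h the median lies near 0 with wider scatter than at 0 h, 9 members standing at 0.653 or less of their 0 h mean, and at 6 h the members lie high except Ttf1, which is high in replicate 2 alone.

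With the test of the study (DESeq2 on rounded expected counts, Benjamini-Hochberg adjusted p of at most 0.05 and more than 2-fold), 101 of 103 members were called higher after 6 h than before KCl, where 9.1% of all genes tested were. At 6 h against 2 h, 100 members were called higher, where 10.1% of all genes were. Both counts follow from how the members were picked. At 2 h against 0 h, 1 member was called higher (Mum1l1) where 3.62% of all genes were. The limit on the 2 h TPM ratio nearly barred such a call, so this count also follows from the rule. It does not show that members were unchanged at 2 h, since smaller rises could not be called. Called lower at 2 h were 3 members (Spaca6, Ttf1 and G530011O06Rik) where 5.94% of all genes were. The members not called at 6 h against 0 h were Ttf1 and Sgip1, and those not called at 6 h against 2 h were Sgip1, Mum1l1 and BC005561.

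Just inside the 6 h limit stood Fam167a, Hs3st1 and Slc20a1 with ratios of 3, 3.02 and 3.03, and just outside it Dio2, Ptchd1 and Ubald1, all at 2.99 to 3. Slc40a1, Hmgn5 and Dennd2c were nearest the 2 h limit from within, with ratios of 1.5, 1.49 and 1.48, while Prkar2a, Alpk1 and D930016D06Rik stood beyond it at 1.51, 1.51 and 1.52. At the count minimum the nearest members were Dnah10, 4732440D04Rik and Msrb3 with mean counts of 104.5, 110.5 and 115, and Lepr, Gm7265 and Rnf43 fell short with 99.5, 96 and 92.5.

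The largest rise belonged to Hspb3, which encodes a small heat shock protein best known from muscle. Hspb3 had 1.44 and 2.56 TPM at 0 h, 2.13 and 3.2 TPM at 2 h and 29.2 and 28.6 TPM at 6 h. Both 6 h libraries lay far above the other 4, which overlapped each other, and the 6 h to 0 h ratio was 14.4. Of 6 muscle markers, Myod1, Myog and Ckm were under 0.1 TPM in every library, Myh3 and Tnnt1 reached at most 0.54 and 0.36 TPM and Acta1 had 0.89 to 1.97 TPM, and their sum was 1.83 and 1.92 TPM in the 0 h libraries and 1.61 and 1.47 TPM in the 6 h ones. Dennd2c, of the DENN family of Rab exchange factors, had 0.61 and 0.53 TPM at 0 h, 0.75 and 0.94 TPM at 2 h and 6.62 and 5.97 TPM at 6 h, a ratio of 11. The non-coding Mir670hg, the host transcript of a microRNA, had 6.58 and 5.83 TPM at 0 h, 9.26 and 7.62 TPM at 2 h and 49 and 53.7 TPM at 6 h. All 3 rose without overlap at 6 h, while at 2 h both libraries of Dennd2c and Mir670hg already stood above both 0 h libraries. Their 2 h ratios were 1.48 and 1.36 on TPM and 1.54 and 1.51 on normalized counts, where both pass the limit.

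Windows before the transcription starts of some members are shown here for the MEF2 consensus, the motif searched whose share stood highest relative to that of genes past the minimum, and for the cAMP response element, known from calcium-driven transcription. RefSeq promoters (GRCm38.p6, 250 bases before to 50 after each start, 1.31 starts per matched member) were matched by symbol for 71 of the 103 members and for 8366 of the genes past the count minimum. A match to the MEF2 consensus, searched by that name on both strands, was in the promoters of 8 members, which is 11.3% against 1.98% of genes past the minimum and 3.7% of all 27025 genes with a promoter. MEF2 factors are calcium-regulated activators of transcription in muscle and neurons. Of the 8, Hspb3, Mir670hg, Nrf1 and Slc20a1 had a match that shares bases with a TATAAA match, and those of Mir670hg and Slc20a1 did not lie wholly before the start. The 6 others are printed 5′ to 3′ on the strand of the gene, with the match in capitals.
Hspb3: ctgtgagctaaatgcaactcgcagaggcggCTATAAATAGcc
Dennd2c: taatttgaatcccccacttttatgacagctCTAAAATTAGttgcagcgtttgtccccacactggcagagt
Nrf1: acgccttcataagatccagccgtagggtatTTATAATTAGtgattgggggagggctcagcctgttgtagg
Pcdh20: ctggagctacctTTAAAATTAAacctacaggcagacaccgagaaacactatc
Dlx6os1: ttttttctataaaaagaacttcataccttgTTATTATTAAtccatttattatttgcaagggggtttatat
Numb: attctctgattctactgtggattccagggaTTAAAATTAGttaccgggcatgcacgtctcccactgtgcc
They lie at chr13:113663677-113663718 (minus strand), chr3:103140114-103140183 (plus), chr6:30076196-30076265 (plus), chr14:88471595-88471646 (minus), chr6:6861707-6861776 (minus) and chr12:83876907-83876976 (minus), in the order printed. The matches end 2, 172, 85, 228, 53 and 124 bases before the start. In Hspb3 the capitals hold TATAAA as well. The starts of Dennd2c, Nrf1, Dlx6os1 and Numb shown are internal ones, inside the gene as annotated.

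The full cAMP response element TGACGTCA, which reads the same on both strands, was in the promoters of 4 members (Mlf1, Ralgapa1, Flcn and Tmem120b), 5.63% against 4.02% of genes past the minimum and 2.03% of all genes. It is shown for the members in which it lies before the start, in capitals.
Mlf1: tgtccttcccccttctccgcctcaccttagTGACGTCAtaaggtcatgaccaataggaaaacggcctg
Ralgapa1: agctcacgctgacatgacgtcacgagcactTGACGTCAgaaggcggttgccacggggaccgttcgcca
Flcn: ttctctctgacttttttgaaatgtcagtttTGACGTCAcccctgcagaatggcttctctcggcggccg
These windows are chr3:67374013-67374080 (plus strand), chr12:55821176-55821243 (minus) and chr11:59810051-59810118 (minus), with the element 46, 38 and 41 bases before the start. The Ralgapa1 window holds another copy in lower case. The shorter TGACG, which the full element contains, was in 32.4% of matched members against 37.5% and 23%.

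Among the other motifs searched on both strands, TATAAA was in 18.3% of members against 8.19% of genes past the minimum and 15.7% of all genes. The AP-1 motif TGANTCA was in 8.45% against 5.46% and 8.97%, in the same order. GCGNGGGCG, bound by EGR factors, was in 8.45% against 13.8% and 6.27%, so for both motifs the direction turned with the genes compared. The E-box CACGTG was in 4.23% against 12.2% and 8.09%. The CArG motif, by that name, was in Cnn2 alone, 1.41% against 1.6% and 1.81%. Promoters of the members held more A and T, with a median of 43.7% against 38.3%, and the part of base composition in these shares was not tested. A match is a run of letters and not a site shown to be bound.

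Gene by gene, the members fell into signalling, membrane, secreted, nuclear and metabolic roles, assigned by hand to the members alone, so the counts by role have no share over all genes beside them. Of the kinases, Map3k5 (ASK1, which passes stress signals to JNK and p38) had 6.25 and 7.01 TPM at 0 h, 5.88 and 6.24 TPM at 2 h and 52.6 and 53.3 TPM at 6 h. Both 2 h libraries lay just under both 0 h libraries, and both 6 h libraries lay far above them at 7.99 times the 0 h mean. Ripk2, the kinase that links NOD receptors to NF-κB, had 2.19 and 2.55 TPM at 0 h, 2.13 and 2.52 TPM at 2 h and 15.7 and 15.8 TPM at 6 h, and Ikbke, an IKK-related kinase of innate immunity, had 1.16 and 0.69 TPM at 0 h, 0.74 and 0.63 TPM at 2 h and 6.52 and 5.41 TPM at 6 h. In both the 0 h and 2 h libraries overlapped on TPM and the 6 h libraries were separate, with ratios of 6.64 and 6.45. The 2 h ratio of Ikbke turned with the scale, 0.741 on TPM and 1.54 on normalized counts, its effective length being 1300 and 2355 bases at 0 h and 3159 and 3009 at 2 h, and it left the list on normalized and on GC-corrected counts.

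Hunk, an AMPK-related kinase, had 6.42 and 6.73 TPM at 0 h, 3.5 and 3.02 TPM at 2 h and 33.4 and 31.9 TPM at 6 h. Its mean at 2 h was 0.496 of the 0 h mean, and at 6 h it had risen to 4.97 times that mean. Grk5, which phosphorylates active G-protein-coupled receptors, had 8.61 and 10.5 TPM at 0 h and 35 and 32.1 at 6 h. Stk10 rose from 2.96 to 10.2 mean TPM and Map3k19 from 0.695 to 2.21. By symbol, protein kinases other than receptor kinases gave 4 members (Map3k5, Hunk, Stk10 and Map3k19) among 210 genes past the minimum, or 1.9% against 0.955% of all genes. Ripk2, Ikbke and Grk5 are outside that set of symbols.

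Second messenger enzymes were among the members. Adcy8, a calcium-stimulated adenylyl cyclase, had 8.25 and 7.99 TPM at 0 h, 8.88 and 10.1 TPM at 2 h and 28.2 and 27.2 TPM at 6 h, a 6 h ratio of 3.41. Pde3a, which breaks down cAMP, had 1.84 and 1.98 TPM at 0 h and 5.76 and 5.83 at 6 h, and Gucy1a2, a subunit of the nitric oxide receptor guanylyl cyclase, had 7.54 and 4.98 and 18 and 20.5. Plcl1, a phospholipase C relative without catalytic activity, rose 3.33 times. All 4 had both 6 h libraries above the rest.

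Regulators of small GTPases and of growth signals also rose late. Ralgapa1, the catalytic subunit of a Ral GTPase-activating complex, had 41.2 and 36.5 TPM at 0 h, 64.3 and 47.4 TPM at 2 h and 143 and 142 TPM at 6 h, so its 2 h ratio of 1.44 was close to the limit. Flcn (folliculin, a nutrient-sensing regulator of mTORC1) rose 3.23 times to a mean of 99.4 TPM, and Spred3, a Sprouty-related inhibitor of Ras to ERK signalling, 3.04 times. Arhgap29, a GTPase-activating protein for RhoA, stood at 0.633 of its 0 h level at 2 h and at 4.08 times it at 6 h. Rassf3 and the Rab escort protein gene Chml reached 4.22 and 3.28 times.

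Of ion channels and receptors, Scn1a, a voltage-gated sodium channel of the type that TTX blocks, had 6.48 and 5.06 TPM at 0 h, 9.34 and 6.85 TPM at 2 h and 19.1 and 20.7 TPM at 6 h. Gabra4, a GABA-A receptor subunit, had 19.2 and 18.5 TPM at 0 h, 21.8 and 13.5 TPM at 2 h and 62.5 and 63.6 TPM at 6 h. Both had 6 h libraries above the other 4, and Gabra4 was the only one of 33 glutamate and GABA receptor genes past the minimum to be a member, or 3.03% against 0.955% of all genes. Tacr3, the receptor for neurokinin B, and Ptger3, a receptor for prostaglandin E2, rose 4.82 and 5.48 times from 2.17 and 2.67 TPM, 2 of 90 G-protein-coupled receptor genes past the minimum, or 2.22% against the same 0.955%.

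Genes of synaptic vesicles, endocytosis and membrane traffic gave 13 members, with ratios from 3.16 to 6.72. A list of synapse organizers and adhesion genes had no member among 43 genes past the minimum. Sv2c, a synaptic vesicle protein, had 6.26 and 6.44 TPM at 0 h, 7.85 and 9.3 TPM at 2 h and 25.8 and 26.8 TPM at 6 h. Lin7a, a PDZ scaffold, had 19 and 15.8 TPM at 0 h, 21.2 and 9.12 TPM at 2 h and 69.4 and 70.1 TPM at 6 h, with the 2 h libraries on either side of the 0 h values. Numb, an endocytic adaptor that counters Notch signalling, rose 3.21 times and Pacsin3, an F-BAR protein of endocytosis, 3.71 times.

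Wls, the carrier that takes Wnt proteins to the cell surface, had 23.6 and 21.7 TPM at 0 h, 28.7 and 23.3 TPM at 2 h and 86.4 and 89.4 TPM at 6 h. Plppr4 (plasticity-related gene 1) was among the most abundant, with 48.8 and 47.5 TPM at 0 h and 152 and 153 at 6 h. Omg, a myelin-associated inhibitor of neurite growth that neurons also make, had 18.6 and 16.3 TPM at 0 h, 24.3 and 19.6 TPM at 2 h and 99.3 and 99.7 TPM at 6 h, a ratio of 5.71. It overlaps Nf1 on the opposite strand, and Nf1 itself stood at 2.12 times its 0 h TPM at 6 h. Dmxl1, Mpp7, Cavin2, Unc119b and Fam126b reached 5.04, 5.39, 6.72, 3.2 and 3.44 times.

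Secreted factors and their processing enzymes gave 8 members. Igf1, insulin-like growth factor 1, had 2.86 and 3.02 TPM at 0 h, 4.71 and 2.12 TPM at 2 h and 19.6 and 15.5 TPM at 6 h. Both 6 h libraries were clear of the rest while the 2 h libraries straddled the 0 h values. Stc1, the hormone stanniocalcin 1, had 4.38 and 5.22 TPM at 0 h and 16.8 and 19.3 at 6 h, and Pnoc, the precursor of nociceptin, 2.06 and 2.4 and 11.2 and 13.1. A list of 30 known later activity genes, drawn up with results of these data known, had 23 past the minimum, of which Igf1 and Stc1 were members. Of the 30, 22 were called higher than 0 h at 6 h, against 9.1% of all genes tested, and 13 already at 2 h, against 3.62%.

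Pam, the enzyme that amidates neuropeptides, was the most abundant of the secretory group, with 61.7 and 58.1 TPM at 0 h, 81.6 and 76.5 TPM at 2 h and 207 and 204 TPM at 6 h. Slit2, a repellent of growing axons, rose 3.28 times to 51.2 TPM, and the tolloid-like protease gene Tll1 3.88 times. Ccn2, a matrix-associated growth regulator, and Sostdc1, a secreted BMP and Wnt antagonist, had 4.22 and 5.38 and 5.03 and 6.87 TPM at 6 h, 3.97 and 3.84 times 0 h. Fat1, a giant cadherin, had 27.2 and 25.9 TPM at 0 h, 26.8 and 32.4 TPM at 2 h and 105 and 90.2 TPM at 6 h, and Pcdh20, a protocadherin, 8.95 and 8.25 TPM at 0 h and 33.6 and 34.3 at 6 h. The junction proteins Jcad and Ajuba reached 5.82 and 3.37 times.

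Both membrane transporters among the members move minerals. Slc40a1 is ferroportin, the exporter of iron, with 0.75 and 0.63 TPM at 0 h, 1.2 and 0.87 TPM at 2 h and 5.31 and 5.96 TPM at 6 h. Slc20a1, a sodium-dependent phosphate transporter, had 65.7 and 72.7 TPM at 0 h, 86.8 and 89.9 TPM at 2 h and 218 and 202 TPM at 6 h. The former rose 8.17 times from a low level and the latter 3.03 times from a high one. Solute carriers as a whole gave 2 members among 187 genes past the minimum, or 1.07%, near the 0.955% of all genes.

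**Figure D2:**
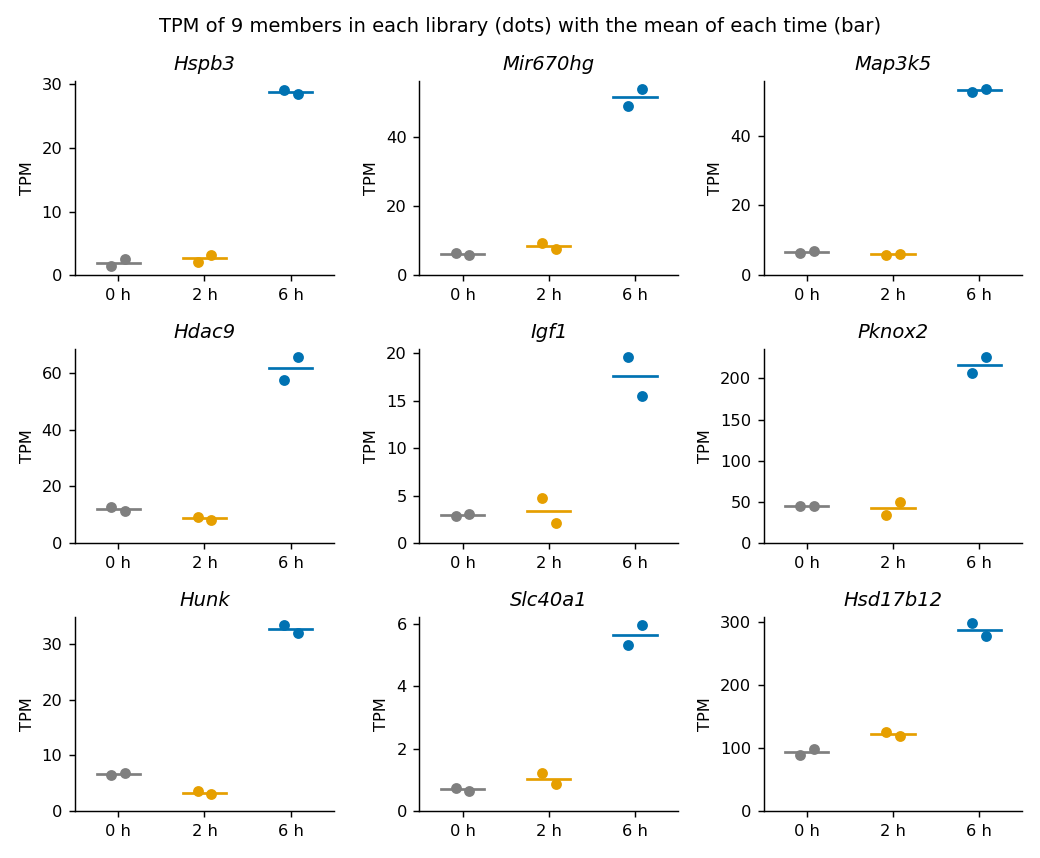
TPM (vertical axis, from 0) of 9 members by time in KCl (horizontal axis). Each dot is 1 library and each bar the mean of 2. All 9 have both 6 h libraries above the other 4, and Hunk, Hdac9 and, by little, Map3k5 have both 2 h libraries below both 0 h libraries.

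Nuclear proteins gave 12 members. By symbol, transcription factor families held 2 members, Per2 and the non-coding Dlx6os1, among 251 genes past the minimum, or 0.797% against 0.955% of all genes. Those symbols do not take in Pknox2 or Nrf1, so the share does not describe all transcription factors. Hdac9, a class IIa histone deacetylase that binds MEF2 factors and represses their targets, had 12.6 and 11.3 TPM at 0 h, 9.27 and 8.16 TPM at 2 h and 57.6 and 65.5 TPM at 6 h. Its 2 h libraries lay under both 0 h libraries, and it then rose to 5.16 times. Pknox2, a TALE homeodomain factor, had 45.1 and 45.2 TPM at 0 h, 34.5 and 49.8 TPM at 2 h and 207 and 226 TPM at 6 h, and Nrf1, an activator of genes for mitochondrial respiration, had 18.8 and 18.1 TPM at 0 h, 18.7 and 19 TPM at 2 h and 73.4 and 82.8 TPM at 6 h. Both were level at 2 h on average and rose more than 4-fold.

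Maml3, a Mastermind co-activator of Notch, had 1.34 and 1.44 TPM at 0 h, 1.08 and 1.16 TPM at 2 h and 8.6 and 8.28 TPM at 6 h, and Per2, a core clock gene, had 3.71 and 3.95 TPM at 0 h, 5.56 and 4.96 TPM at 2 h and 16.3 and 15.6 TPM at 6 h. Lmo2 and Hmgn5 reached 4.27 and 3.7 times. Fubp1, a single-stranded DNA binding protein, had 52.5 and 51.7 TPM at 0 h, 79.2 and 70 TPM at 2 h and 161 and 162 TPM at 6 h. Zfc3h1, which helps bring nuclear RNA to the exosome, rose 3.92 times, Morc4 3.2 times and Trim66 3.29 times. None of the 11 immediate-early transcription factors past the minimum was a member, their median log2 ratio of 2 h to 0 h being 4.3.

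Ttf1, the termination factor of RNA polymerase I, met the rule through 1 library. It had 6.09 and 7.41 TPM at 0 h, 1.09 and 1.44 TPM at 2 h and 5.13 and 70.5 TPM at 6 h. Its expected counts were 377 and 434, 68 and 85 and 282 and 258 at the same times, so by counts the 6 h libraries were alike and lower than 0 h. The effective length, the mean transcript length that TPM divides by, was 3618 and 247 bases at 6 h and 3506 to 3875 bases in the other groups. By normalized counts Ttf1 stood at 0.827 of its 0 h level at 6 h, and it left the list without replicate 2 of 6 h.

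Sgip1, an endocytic protein of neurons and the member with the highest TPM at 6 h, though not at 0 h or 2 h, showed a like shift in both replicates. It had 91.3 and 92.7 TPM at 0 h, 111 and 98.4 TPM at 2 h and 315 and 331 TPM at 6 h. In expected counts it had 3549 and 3718 before KCl, 4522 and 3643 after 2 h and 5485 and 5486 after 6 h, a normalized count ratio of 1.87. The effective length was 2432 and 2400.3 bases before KCl, 2505 and 2407 after 2 h and 1149 and 1118 after 6 h, a log2 ratio of -1.09 at 6 h against 0 h. Counts were higher and effective lengths shorter in both 6 h libraries than in any other.

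Sgip1 was the only member of 89 tested whose effective length was called shifted at 6 h against 0 h, with limma's moderated test, where 0.525% of all genes tested were, and that call was lost without replicate 1 of 0 h, either 2 h replicate or replicate 2 of 6 h. At 6 h against 2 h it was again 1 member, where 0.116% of all genes were, and at 2 h against 0 h no member was, where 0.0356% were. Effective length enters TPM, so a shift in it is not independent of how the members were chosen. At 6 h against 0 h, the quotient of TPM ratio and normalized count ratio had a median of 0.884 over genes past the minimum. It exceeded 1.5 times that median for Ttf1 and Sgip1 only, 1.94% of members against 0.51%. Between the same times Trim66 had the next largest length change, from 7304 and 7737 bases at 0 h to 5269 and 5403 at 6 h. Its TPM and normalized count ratios were 3.29 and 2.66. Lengths also differed at 2 h, though no member was called. Spaca6 had 1848 and 1605 bases at 0 h and 1080 and 356 at 2 h. Its 2 h to 0 h ratio was 0.767 on TPM and 0.321 on normalized counts. Slc40a1 had 1487 and 3056.5 bases at 2 h, with 2 h ratios of 1.5 and 1.19 on the same scales.

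**Figure D3:**
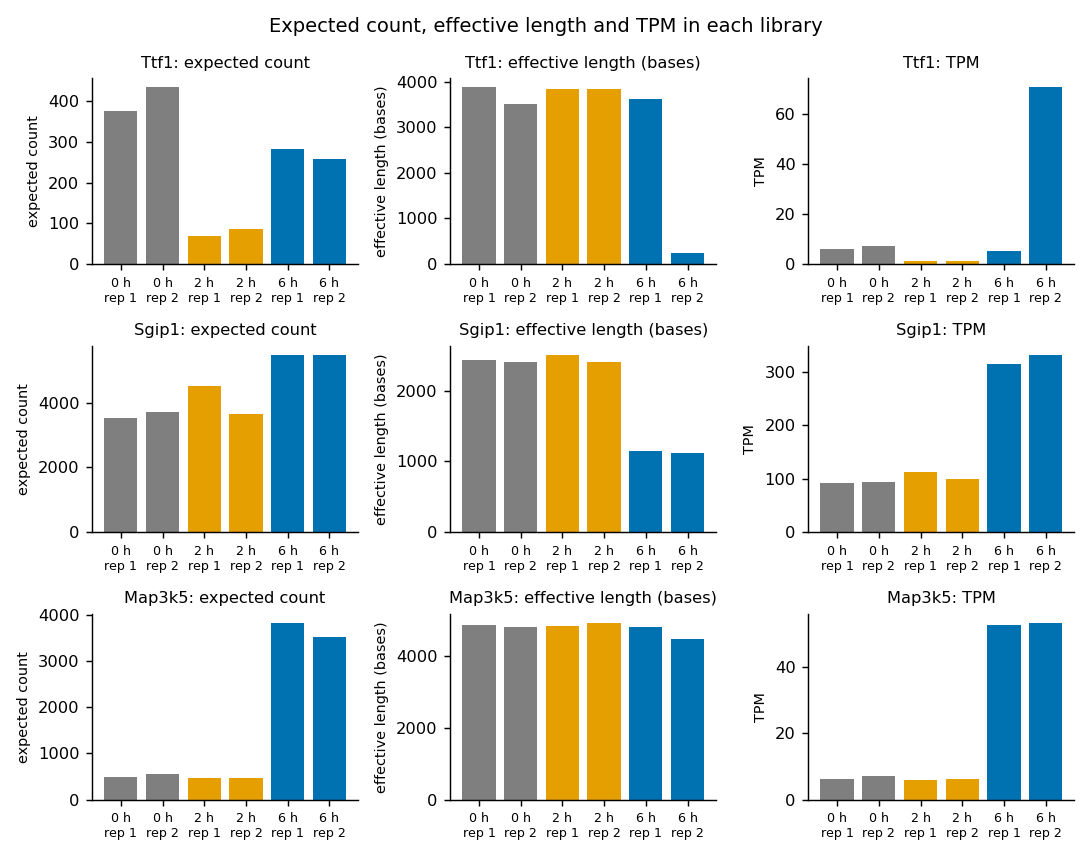
Expected count, effective length in bases and TPM (vertical axes, from 0) of Ttf1, Sgip1 and Map3k5 in each of the 6 libraries (horizontal axis, gray 0 h, orange 2 h, blue 6 h). Map3k5 rises in counts at a steady length, Sgip1 rises less in counts while its length falls in both 6 h libraries, and the length of Ttf1 falls in replicate 2 of 6 h alone.

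Metabolic enzymes gave 7 members. Hsd17b12, of very long chain fatty acid synthesis, had 89 and 97.9 TPM at 0 h, 126 and 118 TPM at 2 h and 298 and 278 TPM at 6 h. Mthfd2, a mitochondrial enzyme of folate metabolism, had 17.8 and 17.4 TPM at 0 h and 56.7 and 57.8 at 6 h, and Pgap1, which remodels GPI anchors, 38.4 and 36.7 and 109.9 and 124. Hs3st1 and C1galt1, which modify heparan sulfate and O-linked glycans, rose 3.02 and 3.04 times, both near the limit of the rule. Degs2, of ceramide synthesis, rose 4.99 times and Msrb3, which repairs oxidized methionine, 3.3 times.

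Some members are best known outside neurons. Rsph4a and Dnah10, of motile cilia, had 8.65 and 8.42 and 0.58 and 0.49 TPM at 6 h, 5.54 and 5.94 times 0 h. Cmya5, a muscle protein, rose 3.79 times but reached only 0.75 and 0.73 TPM, and the large scaffold gene Ahnak 3.2 times, to 1.95 and 1.76 TPM. Cnn2 (calponin 2), the co-chaperone Sgtb, Luzp1 and Palmd reached 4.21, 3.48, 3.07 and 3.36 times. The members for which no role is given here were Brinp1, Mest, Plxdc2, Mfap3l, Klhl4, Kctd12b, Fam167a, Fam181a, Tmem120b, Osgin2, Leng8, Mlf1, Spaca6, Mum1l1 and BC005561. Their ratios ran from 3 to 6.8, with Mest (200.4 and 219.7 TPM) and Brinp1 (159.6 and 163 TPM) the most abundant of them at 6 h.

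Of the 103 members 93 are protein coding and 10 are not. The 10 are 4 lincRNAs, 3 antisense transcripts, 1 pseudogene, 1 processed transcript and 1 locus still to be verified experimentally. Dlx6os1, antisense to the interneuron homeobox gene Dlx6, had 18.9 and 18.8 TPM at 0 h, 16.3 and 7.79 TPM at 2 h and 70.6 and 63.8 TPM at 6 h, while Dlx6 had 10.7 and 10 TPM at 0 h and 11 and 11.6 at 6 h. Gad1 and Gad2 were higher at 6 h as well, and the part of inhibitory neurons in the values of Dlx6os1 and Pnoc was not tested. The pseudogene Gm5124 was the most abundant of the 10, with 105 and 111 TPM at 6 h, and overlaps Gm26593 on the opposite strand, itself 2.8 times higher at 6 h. Gm27000, 5330434G04Rik, G530011O06Rik, Gm21781, Gm37928, Gm37422 and 4732440D04Rik rose 3.05 to 4.13 times.

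Mir670hg and Hsd17b12 were the only members within 100 kb of each other. Both are on the minus strand, at chr2:94160636-94264918 and chr2:94032689-94157964 (GRCm38), so Mir670hg ends within 10 kb before the start of Hsd17b12. Their 6 h ratios were 8.28 and 3.08, and both had 2 h ratios near 1.3. In all, 10 members had an expressed gene on their own strand ending within 10 kb upstream, and the 9 genes other than Mir670hg had 6 h to 0 h ratios of 0.481 to 1.33.

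By the annotation 15 members overlapped another gene past the count minimum, 14.6% against 16.8% of those genes, 13 of them on the opposite strand and 2 on the same strand. The same-strand pairs were Pam with B230216N24Rik and Chml with Opn3, whose partners were already at 4.01 and 2.67 times their 0 h level at 2 h. Among opposite-strand partners, 9830144P21Rik beside Slc20a1 stood at 3.4 times its 0 h level at 2 h and 7.05 times at 6 h, Copg2 beside Mest stood at 0.487 of its 0 h level at 6 h and Gabrb1 beside Gabra4 at 1.73 times. Whether counting used strand is not stated, so values of these 15 genes are uncertain. Non-whole expected counts, a sign of reads shared with other genes, were present for 15 members, 14.6% against 18.4%, and were so in all 6 libraries for Degs2, Sgip1, Mest, Gm27000, Tmem120b, Gm5124, Gm37422 and Slc20a1.

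The locus length of the members was then set beside that of other genes. The gene span, from first to last annotated base, had a median of 48 kb (quartiles 14 and 117 kb) over the 103 members. It was 28.2 kb over genes past the count minimum, 23.4 kb over the 152 genes with a position that rose at least 3 times by 6 h but were already over 1.5 times at 2 h, and 12.8 kb over 99 genes at least 3 times higher at 2 h. The sets of 152 and 99 genes leave out the same symbols as the members do. Spans of 100 kb or more were held by 33 members (32%), against 17.5%, 13.2% and 6.06% in the same order. Spans under 10 kb were held by 16 members (15.5%), against 21.2%, 28.9% and 43.4%. These are descriptions of lists, not tests.

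The longest member was Hdac9 at 869.5 kb (chr12:34047580-34917095, minus strand), followed by Maml3 at 419 kb and Plxdc2 at 399.5 kb. The shortest were Hspb3 at 0.781 kb, Gm27000 at 0.842 kb and Omg at 3.1 kb. Large and small rises occurred at all lengths, and Spearman's rho between span and 6 h ratio across the 103 genes was 0.07. Across the 255 genes that rose at least 3 times by 6 h and had a position, with the same symbols set aside, rho between span and the 2 h ratio was -0.32. Within the members alone it was -0.1. Such genes share libraries and are not independent replicates.

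The span also differed within the members by their level at 2 h. It had a median of 51.1 kb for the 44 under their 0 h level, 69 kb for the 20 at 1 to 1.2 times and 29.1 kb for the 39 above that. Beyond the limit it was 36.3 kb for the 90 genes at 1.5 to 3 times and 13.7 kb for the 60 genes at more than 3 times. The mature transcript differed less than the span, with a median of 4.23 kb for the longest transcript of members against 3.75 kb. Protein-coding members alone had a median span of 50.7 kb against 28.9 kb.

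**Figure D4:**
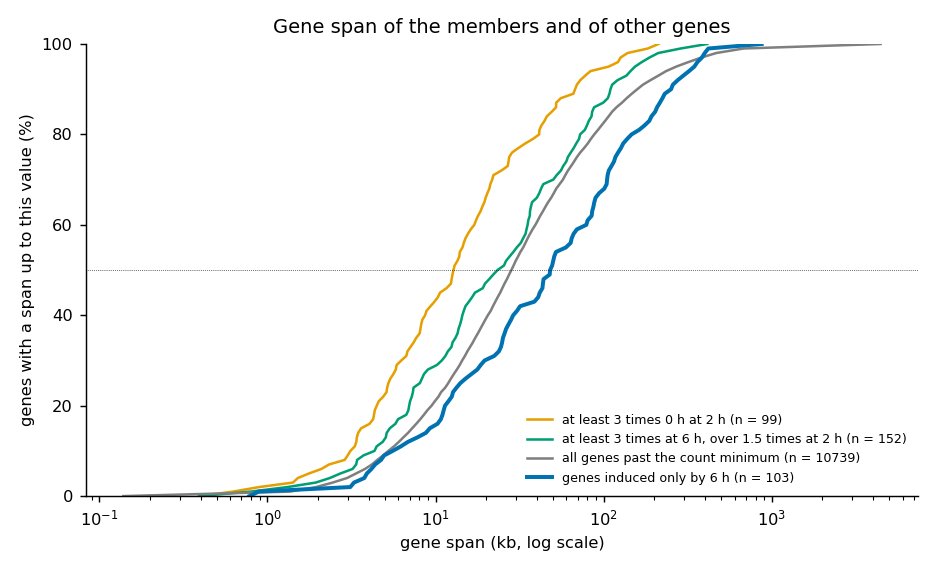
Share of genes (vertical axis, %) with a span up to the value on the horizontal axis (kb, log scale) for the 103 members and 3 other sets, as percentiles. The curve of the members lies to the right of the others over most of its range, with medians of 48, 28.2, 23.4 and 12.8 kb.

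By role the longest median spans were those of ion channels and receptors (106 kb, 5 members), vesicle and membrane traffic (99 kb, 13) and kinases (91.3 kb, 7). Non-coding members had the shortest, 4.78 kb over 10. GC content of the longest transcript had a median of 46% for members against 49.1% for genes past the minimum. Shares by chromosome lay above those of genes past the minimum for several, among them chromosome 1 (11.7% against 6.24%), 3 (10.7% against 4.89%), 10 (9.71% against 4.72%) and X (8.74% against 3.8%), and below them for others, among them 7 (2.91% against 6.91%), 9 (1.94% against 5.63%), 11 (2.91% against 7.64%) and 17 (0.971% against 4.5%). Of the 9 members on X, 4 are not protein coding (Gm27000, Gm5124, 5330434G04Rik and G530011O06Rik). The 5 coding ones are Klhl4, Hmgn5, Mum1l1, Morc4 and Kctd12b.

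Replicates agreed closely at 6 h. For members the median fold between the 2 libraries of a time was 1.06 after 6 h, 1.1 before KCl and 1.21 after 2 h, against 1.06, 1.07 and 1.16 for genes past the minimum. A difference over 2-fold occurred for 2 members at 6 h (Ttf1 and Gm27000), which is 1.94% against 0.334% of genes past the minimum. None had one at 0 h, against 0.278%, and 13 did at 2 h, which is 12.6% against 2.82%. Taking each replicate number on its own, 78 members reached 3 times in both and 101 reached 2 times in both, while 84 kept to 1.5 times at 2 h in both and 65 met the whole rule in both. Libraries of different times were matched by number for these counts, although the numbers were not taken to pair the samples.

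The 2 h libraries differed most from each other along GC content. Genes low in GC read higher in replicate 1 than in replicate 2, with a Spearman's rho of -0.64 between the log2 of that quotient and GC content across the 103 members and -0.69 across genes past the minimum. The 0 h libraries differed the same way (-0.48 and -0.35), and the 6 h libraries did over genes past the minimum (-0.26) but not over members (0.04). Hmgn5, for example, had 27.4 and 12.5 TPM at 2 h, Dmxl1 16.3 and 7.32 and Igf1 4.71 and 2.12. After a correction for GC content 4 members in place of 13 (14 on normalized counts without it) differed over 2-fold at 2 h. Of the 103 members 65 also met the rule on GC-corrected values.

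The largest gaps between replicates were in Ttf1 at 6 h (13.7-fold) and, at 2 h, in Gm37928 (3.78), BC005561 (2.94), Gm27000 (2.74) and 4732440D04Rik (2.58). These 4 are lowly expressed, at 0.31 to 8.77 TPM in the 2 h libraries. Gm27000 also differed 2.21-fold at 6 h, with 27.2 and 12.3 TPM. For most well-expressed members the 6 h libraries were close, as in Hsd17b12 (298 and 278 TPM) and Plppr4 (152 and 153 TPM).

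**Figure D5:**
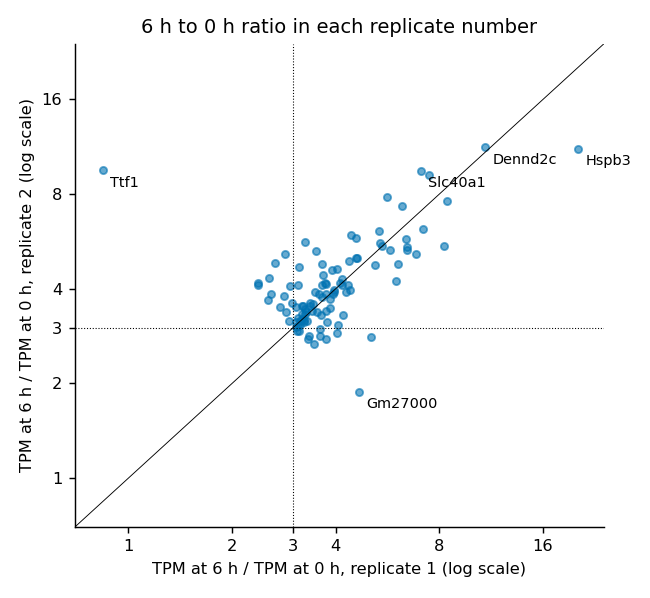
The 6 h to 0 h ratio of TPM in replicate 1 (horizontal axis, log scale) and replicate 2 (vertical axis, log scale), 1 dot per member, with dotted lines at 3 and a solid line of equality. Of the 103 members 78 lie at or beyond 3 on both axes. Ttf1 stands at 0.842 and 9.51, Gm27000 at 4.68 and 1.88, and Hspb3 at 20.2 and 11.2.

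The 5 members lowest at 2 h relative to 0 h were Ttf1 (0.187), G530011O06Rik (0.441), Hunk (0.496), Msrb3 (0.553) and Gm37928 (0.6). G530011O06Rik had 2.4 and 1.91 TPM at 0 h, 1.02 and 0.88 TPM at 2 h and 6.11 and 7.02 TPM at 6 h, low at 2 h in both replicates. Hunk and Msrb3 likewise had both 2 h libraries under both 0 h libraries. In all, 9 members stood at 0.653 or less of their 0 h TPM at 2 h, the others being Palmd, Arhgap29, Dlx6os1 and Gm27000, and each of the 9 except Ttf1 had both 6 h libraries above 0 h.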

How the data were processed

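RNA was measured by poly(A) RNA-seq in 6 libraries, 2 per time, grouped by their labels. As the labels and the study's methods state, the authors estimated expression with RSEM 1.3.0, with Bowtie2 2.2.9 also named, on mm10. The annotation release is not given in the sources used here. The authors deposited expected counts, which need not be whole and are not normalized, TPM, which is corrected for length and scaled to a fixed total, and the effective length of each gene in bases, which follows its mix of transcripts. PCR duplicates carry no molecular identifiers.

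From these values the rule was applied to TPM means. Expected counts were rounded, and DESeq2 1.42.0 (R 4.3.3) was run on the 22515 genes counted in some library, in 1 fit of all libraries with group as the only term and unshrunken fold changes. Calls needed a Benjamini-Hochberg adjusted p of 0.05 or less and a log2 fold change beyond 1 in size. The log2 of effective length was tested with limma 3.58.1 (moderated, with a trend) where expected counts averaged 100 or more, with calls at 0.05 and a log2 ratio of 0.2 or more in size. Both scripts were tested on simulated data. Of 43432 genes, 42548 had a position in GENCODE M21 (GRCm38), the build of the files but perhaps another release.

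The members, gene lists, alternatives and tests were chosen with earlier results of these data known. Genes were named by largest ratio (10), highest TPM (10), span (3 at each end), nearness to the limits (3 on each side), lowest 2 h ratio (5), largest replicate difference (5), called effective length, list or family membership and neighbouring members. The other members were named for their roles after their values were seen, and the roles were assigned by hand from general knowledge. A few genes are not reported here by name.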

Additional observations from a re-analysis of the deposited data

How the results depend on the processing

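The number of genes meeting the rule was 103. It became 462 with a 6 h ratio of at least 2, 38 with at least 4, 68 with the limit at 2 h set midway between 1 and 1.5 times, and 65 when each replicate number had to meet the rule. It stayed within 1.5 times 103 under the other settings run: 126 and 89 with count minimums of 50 and 200, 141 with a 2 h ratio of at most 2, 121 on normalized counts (71 of the 103 among them), 92 on counts scaled by library total (82), 112 on GC-corrected counts (65), and 96 to 122 with libraries left out (77 to 96). Of the 103, 62 remained with every single library left out in turn, 58 on all 3 other scalings and 48 under both. Leaving out replicate 2 of 2 h removed 12 members, among them Igf1, Slc40a1 and Ralgapa1, and leaving out replicate 1 of 2 h removed 7, among them Hspb3 and Dennd2c. Ttf1 reversed: its log2 ratio of 6 h to 0 h was -0.27 on normalized counts, -0.52 on counts scaled by library total, -0.32 on GC-corrected counts and, with a library left out, -0.40 (without replicate 2 of 6 h) to 3.38 (without replicate 1 of 6 h), the setting that keeps only the library with the short effective length.

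Members called by DESeq2 ranged from 96 to 101 at 6 h against 0 h and 92 to 100 at 6 h against 2 h with a library left out, and edgeR 4.0.16 with TMM called 101 and 100. Members called lower at 2 h numbered 2 to 5, with 5 without replicate 1 of 2 h. The count of shifted effective lengths ranged from 0 to 1 (6 h against 0 h), 0 to 1 (2 h against 0 h) and 0 to 2 (6 h against 2 h), and the call of Sgip1 at 6 h against 0 h was lost without replicate 1 of 0 h, either 2 h replicate, or replicate 2 of 6 h. With the replicate block the counts were 101 at 6 h against 0 h, 101 at 6 h against 2 h and 3 lower at 2 h, and 1 effective length at 6 h against 0 h. Same-numbered libraries deviated together with correlations of 0.28 (0 h and 2 h), -0.002 (0 h and 6 h) and 0.15 (2 h and 6 h), so the numbers were not taken to pair the samples.

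The median span of 48 kb was 48.7 to 59.9 kb over members chosen on the other scalings or with a library left out, alternatives added after seeing the data, and 4.23 kb when the longest transcript was the length. With 2 libraries per time, differences under about the spread between replicates, widest at 2 h, cannot be resolved.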
